A study of Homo sapiens with 15 samples.

Results

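SLC6A9, SLC7A5, SLC3A2, SLC43A1, SLC1A4, SLC1A5, SLC38A1, SLC38A2, SLC7A1 and SLC7A3, 10 genes of amino acid transport, were measured on arrays of C42B cells. They were chosen by gene symbol in the platform annotation, and all 10 were found, with 1 probe set each, among 17687 genes analysed. The list of genes, and not a threshold on their values, set the choice, although it was made with earlier results of these data known. C42B cells are human prostate cancer cells derived from LNCaP that grow without androgen.

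The 15 arrays were hybridised with RNA from cells taken after 6 h of treatment. The groups were 10 µM enzalutamide (2 arrays), 10 µM enzalutamide with 15 µM PF-543 (3 arrays), 10 µM enzalutamide with 15 µM ABC294640 (3 arrays), 15 µM PF-543 (3 arrays), 15 µM ABC294640 (1 array) and 0.125% dimethyl sulfoxide (DMSO, 3 arrays), the vehicle. Whether the drug-treated wells held DMSO is not stated in the labels. Enzalutamide blocks the androgen receptor, PF-543 inhibits sphingosine kinase 1, and ABC294640 (opaganib) inhibits sphingosine kinase 2. Cells of every group were grown in medium with 10% serum, and nothing in the labels tells whether the replicates of a group came from different cultures. The p-values thus rest on a spread between arrays that may be only technical.

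Amino acid transporters bring in the building blocks of protein, and several of them are exchangers that let one amino acid in as another leaves. When amino acids are short or proteins misfold in the endoplasmic reticulum, kinases phosphorylate the initiation factor eIF2, the transcription factor ATF4 is made, and ATF4 raises genes for amino acid uptake and synthesis. This programme is the integrated stress response, and several of the 10 genes are among its known targets. In prostate cancer cells, the leucine transporters encoded by SLC7A5 and SLC43A1 are also known to supply mTORC1, the kinase complex that senses amino acids and drives growth.

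Values are log2 expression as the authors deposited it, so a difference of 1 is a doubling. Levels of different genes are only roughly comparable and were not tested against each other, because each probe set has its own brightness. Differences were tested with limma over all 17687 genes, with Benjamini-Hochberg adjustment, and a gene is said to have risen or fallen where its adjusted p was under 0.05.

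Of the 8 luminal prostate markers listed, 6 were analysed here, with mean log2 signals from 9.62 for TMPRSS2 to 15.9 for KLK3. The basal, leukocyte and endothelial markers and the fibroblast markers COL1A1 and DCN averaged 3.79 to 6.61, and the fibroblast collagen gene COL1A2 averaged 9.15. The 3 DMSO arrays stood apart from the 12 arrays of treated cells, at 18.9 to 24.8 against -11.6 to 0 on a first principal component holding 15.3% of the variance. Differences that use no DMSO array are therefore given as well. Their standard errors and p-values still draw on the spread within all groups, DMSO included. The lone array of ABC294640 has no spread of its own and borrows that of the other groups, and the small number of arrays limits the precision.

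SLC6A9 rose with enzalutamide, and it was the 1 member of the 10 that passed the test in any comparison. It encodes GLYT1, a sodium-coupled transporter that takes up glycine. Its log2 expression was 10.51 and 10.37 with enzalutamide alone. With enzalutamide and PF-543 it was 10.62, 10.63 and 10.64, and with enzalutamide and ABC294640 it was 10.19, 10.51 and 10.2. All 8 arrays with enzalutamide lay above all 7 without it. The 7 were at 9.9, 10.08 and 9.94 with PF-543, at 9.95 with ABC294640 and at 9.6, 9.65 and 9.44 with DMSO. Only 0.198% of all genes were higher on every array with enzalutamide than on every array without it. In these bulk samples, a change in the cells present and a change in RNA per cell cannot be told apart.

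SLC6A9 averaged 10.44 ± 0.10 with enzalutamide (SD, n = 2) and 9.56 ± 0.11 with DMSO (SD, n = 3), which is 1.84-fold higher (log2 0.88, SE 0.12, limma adjusted p = 0.0052). In this comparison 0.124% of all genes rose and 0.187% fell. With PF-543 in both groups, SLC6A9 averaged 10.63 ± 0.01 with enzalutamide and 9.97 ± 0.09 without it (SD, n = 3 each), 1.58-fold higher (log2 0.66, SE 0.10, limma adjusted p = 0.0195; 0.0792% of genes rose and 0.232% fell). With ABC294640 in both groups the log2 difference was 0.35 (95% CI 0.03 to 0.67, limma adjusted p = 0.684), and it rests on 1 array of ABC294640 alone. In that comparison 0 of the 10 members passed, where 0.0792% of all genes did. The mean of the last 2 comparisons was log2 0.50 (SE 0.09, limma adjusted p = 0.0321), where 0.0961% of genes rose and 0.288% fell. No DMSO array enters this mean, while its SE and p draw on the spread of all 15 arrays. The difference between the enzalutamide effects on PF-543 and on DMSO was log2 -0.22 (95% CI -0.56 to 0.12, limma adjusted p = 0.75).

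Against DMSO, SLC6A9 was 2.09-fold higher with enzalutamide and PF-543 (log2 1.07, SE 0.10, limma adjusted p = 0.000324; 1.12% of genes rose and 0.905% fell). It was 1.67-fold higher with enzalutamide and ABC294640 (log2 0.74, SE 0.10, limma adjusted p = 0.00683; 0.339% of genes rose and 0.362% fell). These calls held with any 1 of the 15 arrays left out. In a fit on the arrays of the contrast alone, the call of the combination with ABC294640 was lost (adjusted p = 0.113), as were those for enzalutamide alone (adjusted p = 0.175), without DMSO (adjusted p = 0.0789) and with PF-543 in both groups (adjusted p = 0.0942). The call for enzalutamide alone was lost without enzalutamide replicate 1 (limma adjusted p = 0.0827) or replicate 2 (adjusted p = 0.05). The call on top of PF-543 was lost without any 1 of the 3 arrays of that combination or without PF-543 replicate 1 or 3 (adjusted p = 0.0699 to 0.101). Leaving out the same 5 arrays ended the call of the mean without DMSO (adjusted p = 0.0676 to 0.0749), with log2 differences of 0.49 to 0.51.

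**Figure D1:**
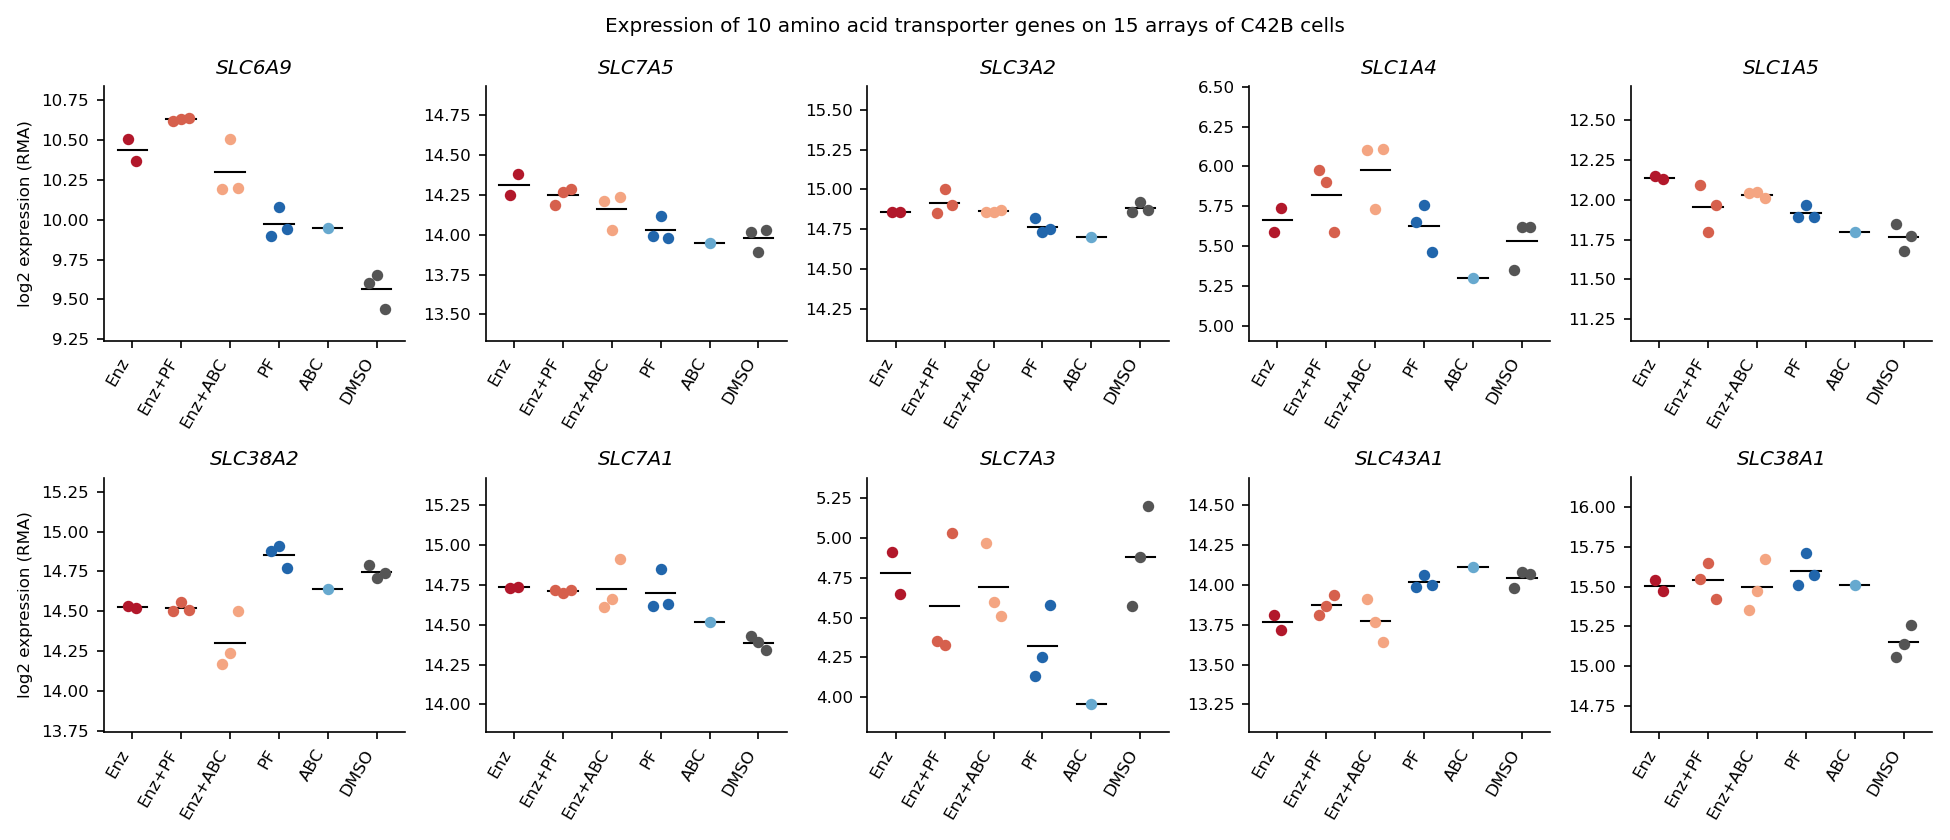
Log2 expression (vertical axis, RMA values, each panel spanning the same number of log2 units) of the 10 transporter genes on every array, by group (horizontal axis; Enz, enzalutamide; PF, PF-543; ABC, ABC294640). Each point is an array and each line a group mean; all 8 arrays with enzalutamide lie above all 7 others for SLC6A9 and below them for SLC38A2 and SLC43A1.

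The SLC6A9 promoter is shown because SLC6A9 is the gene that rose. The sequence is RefSeq's (GRCh38.p14), the 250 bases before the annotated start, chr1:44031463-44031712 on the minus strand. It was searched on both strands for TGATGNAA, the core of the element that ATF4 and C/EBP proteins bind, any match being printed in capitals.
SLC6A9: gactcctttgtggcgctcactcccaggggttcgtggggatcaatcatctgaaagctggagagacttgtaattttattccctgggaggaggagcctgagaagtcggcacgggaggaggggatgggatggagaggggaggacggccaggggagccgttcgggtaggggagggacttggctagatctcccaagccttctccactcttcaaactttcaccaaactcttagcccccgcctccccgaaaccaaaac
These letters are not in this window.

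The gene most like SLC6A9 over the 15 arrays, by Pearson correlation, was TMEM33, a membrane protein of the endoplasmic reticulum (Pearson r = 0.919, Spearman rho = 0.92). Next came STC2, a secreted glycoprotein and ATF4 target (r = 0.916, rho = 0.909), and CASZ1, a zinc finger transcription factor (r = 0.908, rho = 0.931). These are the 3 highest Pearson coefficients of 17687 genes, and CASZ1 had the highest rho of the 3. They are given as a description. The 15 arrays share the separation of the DMSO arrays.

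SLC7A5 and SLC3A2 encode LAT1 and the 4F2 heavy chain, which pair to form the exchanger that brings in leucine and other large neutral amino acids. SLC7A5 was at 14.25 and 14.38 with enzalutamide, against 14.02, 13.89 and 14.03 with DMSO. The groups did not overlap, and 13.5% of all genes were likewise higher without overlap. The log2 difference was 0.33 (95% CI 0.12 to 0.55, limma adjusted p = 0.192). On top of PF-543 it was 0.22 (95% CI 0.02 to 0.42) and on top of ABC294640 it was 0.21 (95% CI -0.07 to 0.49), with limma adjusted p = 0.536 and 0.837. Over all groups, the 8 arrays with enzalutamide ranged from 14.03 to 14.38 and the 7 without it from 13.89 to 14.12, so that the ranges overlapped.

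The values of SLC3A2 overlapped between enzalutamide and DMSO. It was at 14.86 on both arrays with enzalutamide, against 14.86, 14.92 and 14.87 with DMSO (log2 -0.02, 95% CI -0.21 to 0.16, limma adjusted p = 0.942). Without DMSO arrays the enzalutamide effect was 0.16 (95% CI 0.01 to 0.30, limma adjusted p = 0.56). SLC3A2 had a pooled SD within groups of 0.05, and 0.775% of all genes had a smaller one. The lowest SLC3A2 array of the 15 was ABC294640 alone at 14.7. The correlation of SLC7A5 and SLC3A2 over the 12 treated arrays was r = 0.69, against 0.40 over all 15 arrays and -0.11 after each group's mean was removed, given as a description of arrays that share treatments.

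SLC43A1 was lower on every array with enzalutamide than on every other array, as were 0.475% of all genes, and did not pass the test. It encodes LAT3, a facilitative transporter of leucine and its relatives that needs no heavy chain. It was at 13.81 and 13.72 with enzalutamide, at 13.81, 13.87 and 13.94 with PF-543 added, and at 13.91, 13.77 and 13.64 with ABC294640 added. Without enzalutamide it was at 13.99, 14.06 and 14 with PF-543, at 14.11 with ABC294640 and at 13.98, 14.08 and 14.07 with DMSO. The gap between the highest array with enzalutamide and the lowest without was log2 0.04. The difference from DMSO was -0.28 (95% CI -0.49 to -0.06, limma adjusted p = 0.255), and without DMSO arrays it was -0.24 (95% CI -0.41 to -0.07, limma adjusted p = 0.349).

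SLC38A2 showed the same separation. It encodes SNAT2, a sodium-coupled transporter of glutamine and other small neutral amino acids that is known to rise when amino acids are short. Its values were 14.53 and 14.52 with enzalutamide, 14.5, 14.56 and 14.51 with enzalutamide and PF-543, and 14.17, 14.24 and 14.5 with enzalutamide and ABC294640. They were 14.88, 14.91 and 14.77 with PF-543, 14.64 with ABC294640 and 14.79, 14.71 and 14.74 with DMSO. All 8 arrays with enzalutamide lay below all 7 others, as did those of 0.475% of all genes, with a gap of log2 0.08.

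The log2 difference of SLC38A2 from DMSO was -0.22 with enzalutamide (95% CI -0.45 to 0.01, limma adjusted p = 0.402), -0.22 with enzalutamide and PF-543 (adjusted p = 0.224) and -0.44 with enzalutamide and ABC294640 (95% CI -0.65 to -0.24, adjusted p = 0.0534). Without DMSO arrays the enzalutamide effect was -0.33 (95% CI -0.51 to -0.16, limma adjusted p = 0.154). None of these passed. Without replicate 3 of the combination with ABC294640, the difference of that combination from DMSO was -0.54 and passed (limma adjusted p = 0.0287). Over the 3 enzalutamide comparisons together, a contrast chosen after the data were seen, SLC38A2 was at log2 -0.30 (limma adjusted p = 0.0545), SLC43A1 at -0.25 (adjusted p = 0.0868), SLC7A5 at 0.26 (adjusted p = 0.0896) and SLC6A9 at 0.63 (adjusted p = 0.000543). In that contrast 0.294% of genes rose and 0.588% fell.

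SLC38A1, which encodes the related glutamine transporter SNAT1, was separated by treatment of any kind and not by enzalutamide. It was at 15.54 and 15.47 with enzalutamide, at 15.51, 15.71 and 15.57 with PF-543 and at 15.51 with ABC294640. The combination with PF-543 gave 15.55, 15.65 and 15.42, and the combination with ABC294640 gave 15.35, 15.47 and 15.67. DMSO gave 15.06, 15.14 and 15.26, so all 12 treated arrays lay above all 3 DMSO arrays. The log2 differences from DMSO were 0.35 with enzalutamide, 0.44 with PF-543 and 0.36 with ABC294640 (limma adjusted p = 0.236, 0.0832 and 0.49). Without DMSO arrays the enzalutamide effect on SLC38A1 was -0.03 (95% CI -0.23 to 0.16), and adding PF-543 to enzalutamide gave 0.04 (95% CI -0.22 to 0.29).

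SLC7A1 encodes CAT1, the main carrier of arginine and lysine, and it too was higher on all 12 treated arrays, at 14.52 to 14.91, than on the DMSO arrays, at 14.43, 14.39 and 14.34. With SLC6A9 and SLC38A1, this made 3 of the 10 members, and 2.03% of all genes had this pattern. SLC7A1 was at 14.73 and 14.74 with enzalutamide (log2 0.35 against DMSO, 95% CI 0.11 to 0.58, limma adjusted p = 0.208) and at 14.62, 14.85 and 14.63 with PF-543 (log2 0.31, adjusted p = 0.158). Without DMSO arrays its enzalutamide effect was 0.11 (95% CI -0.07 to 0.29, limma adjusted p = 0.839). SLC38A1 and SLC7A1 thus lay apart from DMSO in the comparisons that the separated DMSO arrays enter, and the part of that separation was not tested.

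SLC1A5 encodes ASCT2, an exchanger through which many cancer cells take up glutamine. It was at 12.15 and 12.13 with enzalutamide, against 11.85, 11.68 and 11.77 with DMSO (log2 0.37, 95% CI 0.16 to 0.59, limma adjusted p = 0.156). The groups did not overlap, and 13.5% of all genes were higher without overlap. With PF-543 in both groups SLC1A5 was at 12.09, 11.8 and 11.97 with enzalutamide and at 11.89, 11.97 and 11.89 without it (log2 0.04, 95% CI -0.16 to 0.23). With ABC294640 in both groups the log2 difference was 0.23, resting on 1 array of ABC294640 alone. Without DMSO arrays the enzalutamide effect on SLC1A5 was 0.14 (95% CI -0.03 to 0.30). The difference between its enzalutamide effects on PF-543 and on DMSO was log2 -0.34 (95% CI -0.63 to -0.05, limma adjusted p = 0.579). The enzalutamide effects on PF-543 and on DMSO also differed by -0.33 for SLC7A1 and -0.41 for SLC38A1 (limma adjusted p = 0.604 and 0.561). These 3 of 10 members had an unadjusted p under 0.05 in this comparison, as did 8.07% of all genes, and 0 of the 17687 genes passed after limma's adjustment (12 under a robust prior that follows the mean signal).

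SLC1A4 and SLC7A3 were dim, and no detection calls were used to judge them against background. SLC1A4, which encodes the serine and alanine exchanger ASCT1, ranged from 5.3 to 6.11 over the 15 arrays. It was at 6.1, 5.73 and 6.11 with enzalutamide and ABC294640, the group with its highest mean, against 5.35, 5.62 and 5.62 with DMSO (log2 0.45, 95% CI 0.15 to 0.75, limma adjusted p = 0.147). Its enzalutamide effect without DMSO arrays was 0.44 (95% CI 0.18 to 0.70, limma adjusted p = 0.237). SLC7A3, which encodes the cationic transporter CAT3, ranged from 3.96 with ABC294640 to 5.2 with DMSO, with a pooled SD within groups of 0.29. The first quartile of all probe sets lay between 4.57 and 4.69 on these arrays. SLC7A3 differed from DMSO by log2 -0.56 with PF-543 (95% CI -1.02 to -0.10) and by -0.92 on the ABC294640 array (95% CI -1.57 to -0.27), with limma adjusted p = 0.233 and 0.375. Without DMSO arrays its enzalutamide effect was 0.49 (95% CI 0.09 to 0.89, limma adjusted p = 0.464), and against DMSO it was -0.10.

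**Figure D2:**
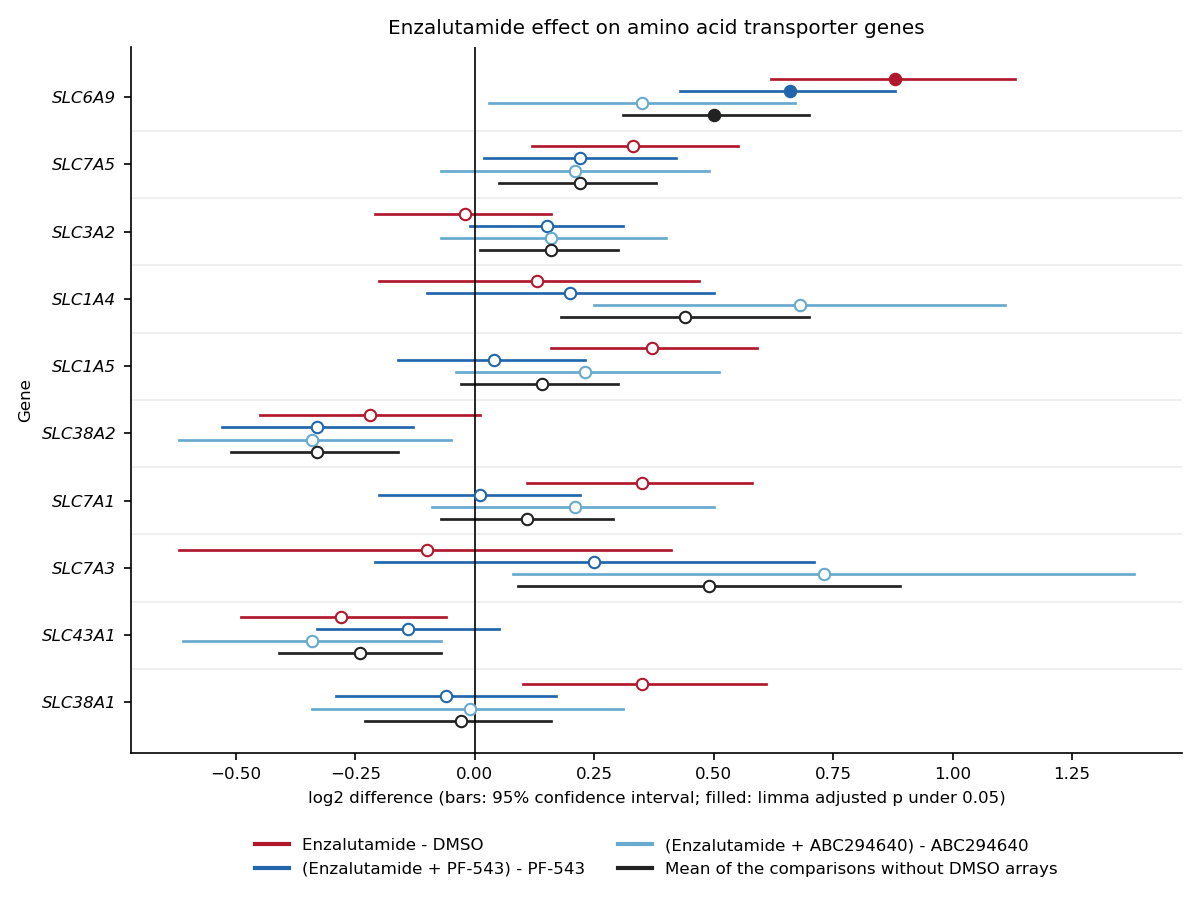
Log2 differences with enzalutamide (horizontal axis) for the 10 genes (rows), against DMSO, on top of PF-543, on top of ABC294640 and as the mean of the comparisons without DMSO arrays. Bars are 95% confidence intervals and filled points passed limma at an adjusted p under 0.05; the filled points belong to SLC6A9, and SLC38A2 and SLC43A1 lie below 0 in each comparison.

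Promoter windows of RefSeq (300 bases, 250 of them before the start) were matched for 9 of the 10 genes, all but SLC7A3, some with several starts. TGATGNAA, or its reverse complement TTNCATCA, was found in windows of 5 genes. None of these genes passed in the main fit. Under the robust prior that follows the mean signal, SLC1A5, SLC7A1 and SLC38A1 passed with enzalutamide against DMSO (limma adjusted p = 0.0302, 0.00987 and 0.0125). Whether the letters bear on the changes was not tested. The matches lay in 5 of the 16 windows of the members, and 3.62% of all 35116 promoter windows held one. The matches are shown, 30 bases each on the strand of the gene, since they mark which members carry the letters of the ATF4 element near a start, with the match in capitals. The match starts 7 bases before an SLC1A4 start, 97 before an SLC1A5 start and 4 before an SLC38A1 start. It starts at base 38 after an SLC3A2 start and at base 8 after the SLC7A1 start. The positions are chr2:64989381-64989410 (plus strand) for SLC1A4, chr19:46784893-46784922 (minus) for SLC1A5, chr12:46266502-46266531 (minus) for SLC38A1, chr11:62881719-62881748 (plus) for SLC3A2 and chr13:29595663-29595692 (minus) for SLC7A1.
SLC1A4: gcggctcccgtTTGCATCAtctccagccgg
SLC1A5: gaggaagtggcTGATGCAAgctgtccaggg
SLC38A1: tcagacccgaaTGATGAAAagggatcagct
SLC3A2: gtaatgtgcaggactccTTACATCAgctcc
SLC7A1: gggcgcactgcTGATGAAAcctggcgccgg
A match is a run of letters and was not tested for binding.

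Seen together with enzalutamide against DMSO, 6 of the 10 genes lay above 0 and 4 below, with a median log2 difference of 0.23 against -0.01 over all genes. Of the 10, 1 rose, 0 fell and 9 did not pass, while 6 had an unadjusted p under 0.05, as did 12.9% of all genes. The groups did not overlap for 5 genes that were higher and 2 that were lower, where 13.5% and 14.6% of all genes did so. Without DMSO arrays 7 lay above 0, the median was 0.15 against 0.01 over all genes, and again SLC6A9 alone passed. The 9 members other than SLC7A3 had pooled SDs within groups of 0.05 to 0.18, against a median of 0.18 over all genes.

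The calls depended on how limma estimates the spread of a gene. Under a robust prior that follows the mean signal, SLC7A5, SLC1A5, SLC7A1, SLC38A1 (higher) and SLC43A1 (lower) passed as well with enzalutamide against DMSO, with adjusted p from 0.00987 to 0.0412, in place of 0.156 to 0.255. That made 6 of 10 members, where 1.5% of all genes passed. Without DMSO arrays, SLC38A2 (adjusted p = 0.000515) and SLC43A1 (adjusted p = 0.0233) passed beside SLC6A9, 3 of 10 members where 0.995% of all genes passed. SLC7A5, SLC1A5, SLC7A1 and SLC38A1 did not pass there. With enzalutamide and PF-543 against DMSO 5 members passed (SLC6A9, SLC7A5, SLC7A1 and SLC38A1 higher, SLC38A2 lower), where 6.34% of all genes did. With enzalutamide and ABC294640 against DMSO 5 passed (SLC6A9, SLC7A1 and SLC38A1 higher, SLC38A2 and SLC43A1 lower), where 3.39% did. On top of PF-543 SLC6A9 and SLC38A2 passed, where 0.831% did. Over the 3 enzalutamide comparisons together 6 passed, all those of enzalutamide against DMSO but with SLC38A2 in place of SLC38A1, where 1.94% did.

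In the main fit, neither sphingosine kinase inhibitor gave a call among the 10 genes against DMSO. Few genes of any kind passed there, 0.565% with PF-543 and 0% with ABC294640. With PF-543 against DMSO the members' differences ran from log2 -0.56 for SLC7A3 to 0.44 for SLC38A1, with a median of 0.10, and 0 of 10 passed where 0.565% of all genes did. The nearest were SLC38A1 (log2 0.44, 95% CI 0.21 to 0.67, limma adjusted p = 0.0832) and SLC6A9 (log2 0.41, 95% CI 0.18 to 0.64, adjusted p = 0.0975), and 4 members had an unadjusted p under 0.05, as did 15.5% of all genes. Under the prior that follows the mean signal SLC38A1, SLC7A1 and SLC6A9 passed (adjusted p = 0.000251, 0.00649 and 0.0365), where 3.09% of all genes did. With ABC294640 against DMSO 0 of 10 members and 0% of all genes passed (8 genes and none of the members under that prior), 3 members had an unadjusted p under 0.05, as did 9.57% of all genes, and SLC6A9 was at log2 0.39 (95% CI 0.07 to 0.71).

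On top of enzalutamide, where no DMSO array enters, PF-543 gave differences from log2 -0.21 for SLC7A3 to 0.19 for SLC6A9. The SLC6A9 arrays did not overlap, as was so for the higher arrays of 12.8% of all genes, and its 95% CI ran from -0.06 to 0.44 (limma adjusted p = 0.751). ABC294640 on top of enzalutamide gave differences from -0.22 for SLC38A2 to 0.32 for SLC1A4. In each of these comparisons 0 members passed and 0 had an unadjusted p under 0.05, where 0.0283% and 0% of all genes passed and 7.83% and 6.78% had such a p in limma.

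The inhibitors were set against each other at 15 µM and 6 h. With enzalutamide in both groups, SLC6A9 was higher with PF-543, at 10.62 to 10.64, than with ABC294640, at 10.19 to 10.51. The log2 difference was 0.33 (95% CI 0.10 to 0.56, limma adjusted p = 0.503), and 6.43% of all genes were higher without overlap. SLC38A2 differed by 0.22 (95% CI 0.02 to 0.42, adjusted p = 0.663), and the other 8 members had intervals that included 0. Without enzalutamide, PF-543 against the single ABC294640 array gave log2 -0.09 for SLC43A1 to 0.36 for SLC7A3, and the SLC6A9 difference was 0.02 (95% CI -0.30 to 0.34). Of the 10 members, 0 passed in either comparison, where 0.0961% and 0.017% of all genes did.

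**Figure D3:**
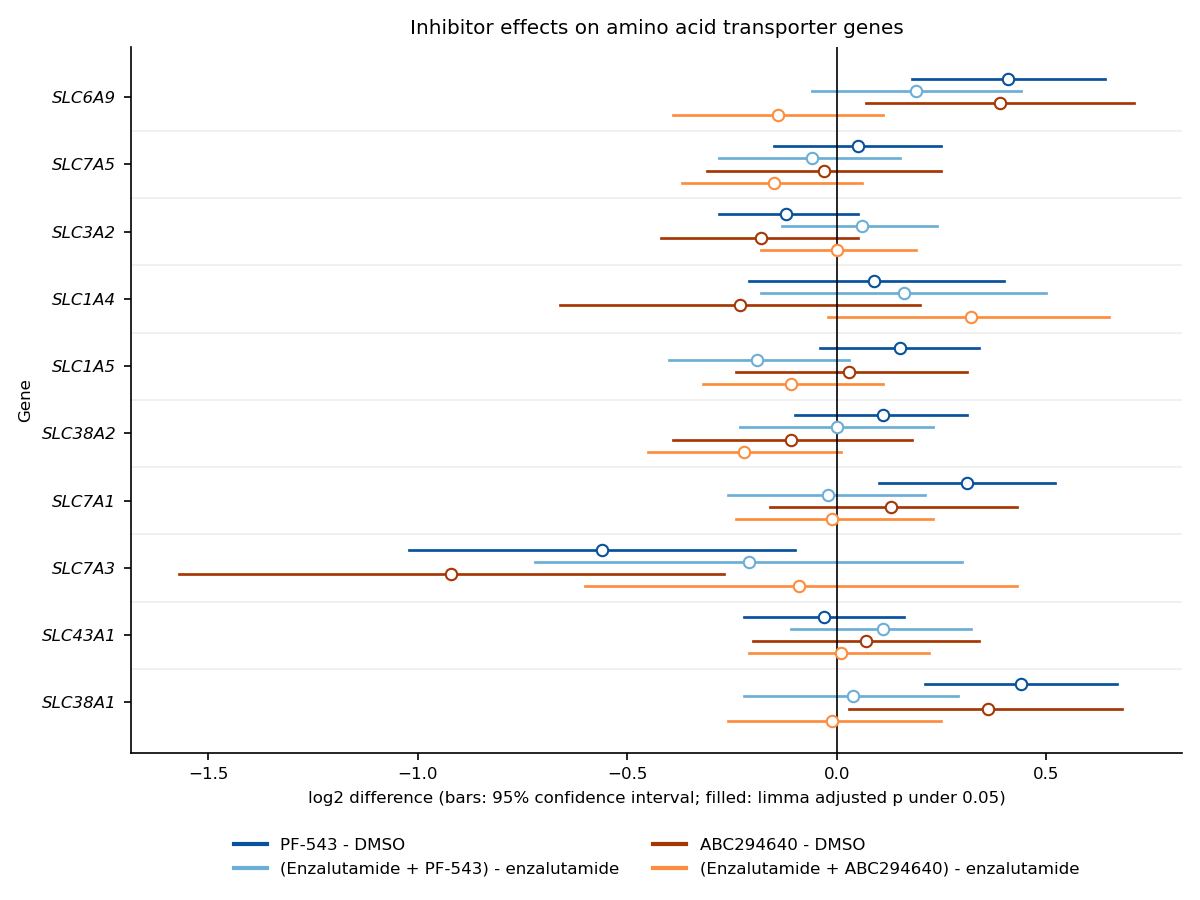
Log2 differences (horizontal axis) for PF-543 and for ABC294640, against DMSO and on top of enzalutamide, for the 10 genes (rows). Bars are 95% confidence intervals and no point passed limma at an adjusted p under 0.05; SLC38A1 lies at 0.44 and 0.36 against DMSO and at 0.04 and -0.01 on top of enzalutamide.

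Of 42 other amino acid transporters, none passed with enzalutamide against DMSO or without DMSO arrays, with a median log2 difference of -0.01 in each. Over all genes 0.124% rose and 0.187% fell against DMSO, and 0.0961% rose and 0.288% fell without DMSO arrays. The cystine importer SLC7A11 was at log2 0.22 (95% CI -0.07 to 0.52) with enzalutamide. With enzalutamide and PF-543 against DMSO it rose (log2 0.71, SE 0.12, limma adjusted p = 0.0146), the 1 of the 42 to do so, where 1.12% of all genes did. Without DMSO arrays its enzalutamide effect was 0.43 (adjusted p = 0.161). Over the 3 enzalutamide comparisons together 1 of the 42 fell, where 0.588% of all genes did. This was SLC36A1, which carries small amino acids out of lysosomes, at 9.18 to 9.49 on the 8 arrays with enzalutamide and 9.53 to 10.19 on the 7 without it (log2 -0.54, SE 0.09, limma adjusted p = 0.0162).

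Among ATF4 targets that are no transporters, CHAC1, DDIT4 and STC2 rose with enzalutamide both against DMSO and without DMSO arrays. Of 25 analysed, 4 rose and 0 fell against DMSO, where 0.124% and 0.187% of all genes did, with a median log2 difference of 0.22 against -0.01 over all genes. CHAC1, which degrades glutathione, was at log2 1.19, the mTORC1 inhibitor DDIT4 also at 1.19, the leucine sensor SESN2 at 0.94 and STC2 at 0.60, with limma adjusted p from 0.000604 to 0.0338. Without DMSO arrays 4 of the 25 rose, where 0.0961% of all genes did, CHAC1 (1.37), DDIT4 (1.17), STC2 (0.48) and the asparagine synthetase gene ASNS (0.40), with adjusted p from 6.65e-06 to 0.0308. SESN2 was at 0.61 there and did not pass (adjusted p = 0.078). The SLC6A9 difference was 0.50 there. The 25 targets had a median of 0.16, and 21 of them did not pass. Genes that passed the same threshold tend to be alike in size, and whether SLC6A9 behaved as these targets did was not tested.

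ATF4 mRNA was at 14.35 to 14.38 with enzalutamide and at 13.98 to 14.18 with DMSO (log2 0.31, 95% CI 0.11 to 0.50, limma adjusted p = 0.183). It rose with enzalutamide and PF-543 against DMSO (log2 0.38, SE 0.08, adjusted p = 0.0335). Where no DMSO array enters it did not pass, with an enzalutamide effect of 0.18 (95% CI 0.03 to 0.33, adjusted p = 0.507) and a difference of 0.07 for PF-543 on top of enzalutamide (adjusted p = 0.894). ATF4 mRNA was at 14.28 to 14.47 on the 8 arrays with enzalutamide, above the 13.98 to 14.25 on the 7 without it. The gap was log2 0.03, and 0.198% of all genes were higher with this separation. Of 20 analysed regulators of the integrated stress response, with enzalutamide and PF-543 against DMSO 5 rose, among them DDIT3, TRIB3 and ATF3 (log2 1.66, 1.27 and 0.82), where 1.12% of all genes rose and 0.905% fell. None of the 20 passed with enzalutamide alone, where 0.124% of all genes rose and 0.187% fell. Without DMSO arrays DDIT3 (1.21) and TRIB3 (0.72) rose (limma adjusted p = 0.00517 and 0.0375), where 0.0961% of all genes did. Of 29 genes of amino acid sensing by mTORC1, 1 rose with enzalutamide against DMSO, where 0.124% of all genes did. This was SESN2, which is also on the list of ATF4 targets.

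**Figure D4:**
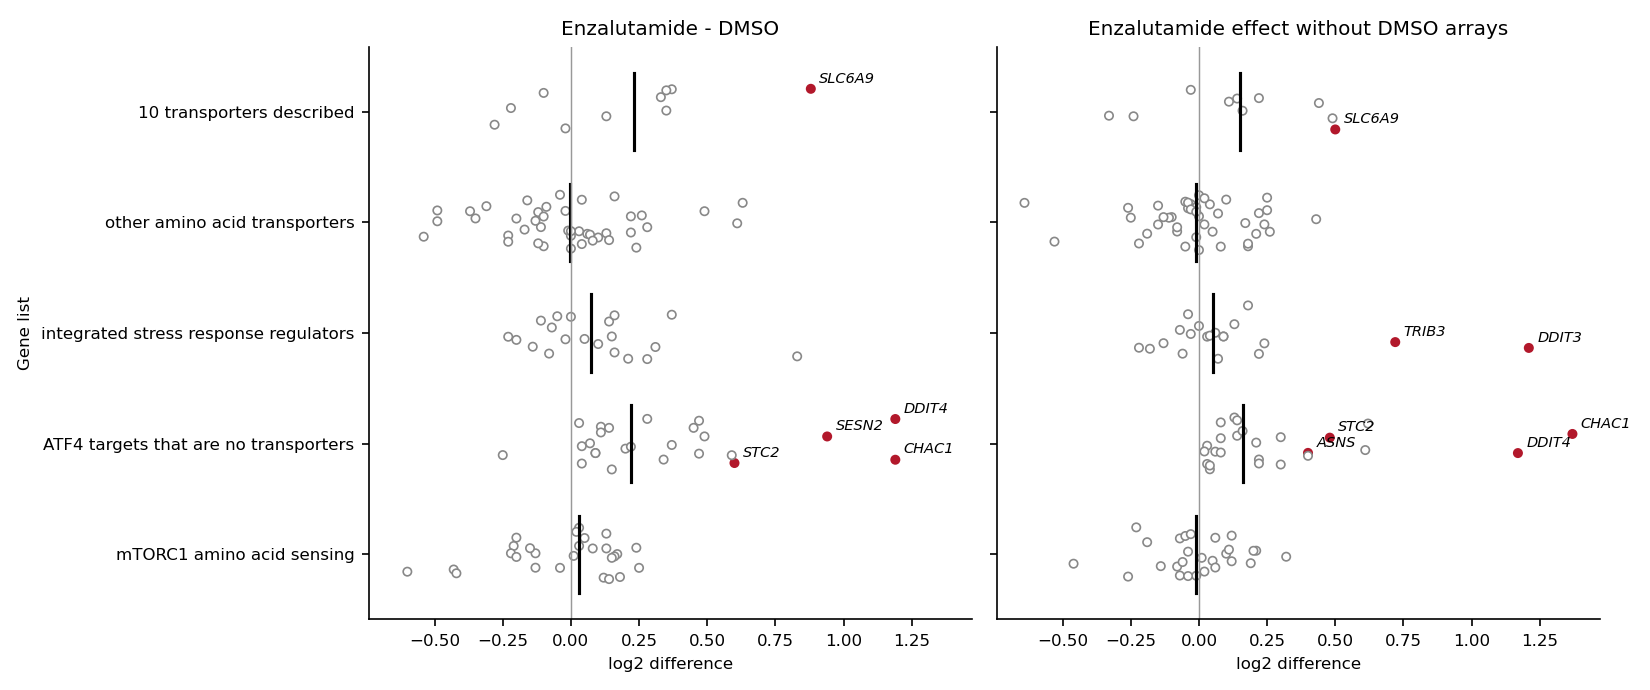
Log2 differences (horizontal axis) of the 10 transporters and of 4 other gene lists (rows), for enzalutamide against DMSO (left) and for the enzalutamide effect without DMSO arrays (right). Each point is a gene, black lines are medians, and filled, named points passed limma at an adjusted p under 0.05; genes of 2 lists are drawn once, and SLC6A9 is the 1 named transporter in both panels.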

How the data were processed

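Expression was measured on Affymetrix whole-transcript arrays. The values are log2 expression per probe set, made by the authors with RMA and Transcriptome Analysis Console 4.02, per the submitters' processing notes. RMA corrects background, normalizes between arrays and summarises probes, which can hide a shift common to all genes. The sources used here do not give the RMA variant, annotation version or build. Column medians were 6.71 to 6.76. Groups came from the sample titles, and no 2 arrays held identical values.

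Of 21448 probe sets, 17709 had 1 gene symbol, 0 several and 3739 none here. For the 20 genes with several, the highest mean was kept, which left 17687 genes, all matched to RefSeq by Entrez identifier. limma 3.58.1 in R 4.3.3 fitted a mean per group to all 15 arrays (9 residual and 3.82 prior degrees of freedom), adjusting over all genes within each of 13 contrasts. A contrast over the 3 enzalutamide comparisons was added after the data were seen. The members, the 4 other lists and the contrasts were chosen with earlier results of these data known. Named genes were all members, the up to 4 most changed called genes of each list, SLC7A11, ATF4 and the 3 genes most correlated with a called member. Alternatives were other normalizations, filters, priors, weights and sample choices, a replicate block, and leaving out each array. The test was checked on simulated data with independent normal noise, and the outcome is not reported here. The 26 pairs of arrays from different groups with the same replicate number had deviations correlating at -0.0369 to 0.0717, 0 of them over 0.1, so the numbers were not taken to pair the arrays. Promoters are RefSeq's, GRCh38.p14. Figures used matplotlib 3.10.9.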

Additional observations from a re-analysis of the deposited data

How the results depend on the processing

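SLC6A9 stayed above 0 in each comparison of enzalutamide with DMSO or with an inhibitor alone under each alternative, and no called difference turned. Its effect without DMSO arrays was log2 0.49 to 0.52 over 8 other settings. SLC7A3 has no value without the dimmest 25% of genes. With the replicate block 1 member was called for enzalutamide against DMSO (SLC6A9; 41 genes in place of 55), and 3 of 14 numbered arrays correlated best with an array of their own number. The block moved the count of all genes to 46 in place of 100 for PF-543 against DMSO, 236 in place of 358 and 74 in place of 124 for the combinations with PF-543 and ABC294640 against DMSO, 3 in place of 5 for PF-543 on top of enzalutamide and 4 in place of 17 between the combinations.

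With a robust prior trend 6 members in place of 1 passed for enzalutamide against DMSO, 3 in place of 0 for PF-543, 5 in place of 1 for either combination against DMSO, 2 on top of PF-543, 3 for the enzalutamide effect without DMSO and 6 over the 3 enzalutamide comparisons. With the dimmest 25% left out there were 2 for enzalutamide and ABC294640 against DMSO and 3 over the 3 comparisons. Cyclic loess gave 2 and 2, and quantile normalization 2 over the 3; the added gene was SLC38A2 in each, and SLC43A1 was the third. The fit on the arrays of a contrast alone gave 0 for enzalutamide and for enzalutamide and ABC294640 against DMSO, on top of PF-543 and without DMSO, with fewer arrays behind the spread. With 1 array left out the counts were 0 to 1 for enzalutamide against DMSO, on top of PF-543 and without DMSO, and 1 to 2 for enzalutamide and ABC294640 against DMSO and over the 3 comparisons. SLC38A2 was the added gene, without replicate 3 of that combination (limma adjusted p = 0.0287 and 0.0186). The cause was not tested.

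Over all genes, the robust trend called 266 in place of 55 for enzalutamide, 547 in place of 100 for PF-543, 8 in place of 0 for ABC294640, and 1121 in place of 358 and 599 in place of 124 for the combinations with PF-543 and ABC294640, all against DMSO. It called 47 in place of 5 for PF-543 and 1 in place of 0 for ABC294640 on top of enzalutamide, 147 in place of 55 and 38 in place of 14 for enzalutamide on top of PF-543 and ABC294640, 28 in place of 17 and 18 in place of 3 between the inhibitors with and without enzalutamide, 176 in place of 68 without DMSO, 12 in place of 0 for the interaction and 344 in place of 156 over the 3. The fit on a contrast's arrays alone called 3 for enzalutamide, 9 for PF-543, and 31 and 23 for the combinations with PF-543 and ABC294640 against DMSO, 0 for PF-543 on top of enzalutamide, 17 and 0 for enzalutamide on top of PF-543 and ABC294640, and 4 and 0 between the inhibitors with and without enzalutamide. Leaving out the dimmest genes gave 177 for PF-543, and 545 and 210 for the combinations against DMSO. It gave 8 for PF-543 on top of enzalutamide, as did all probe sets and array weights, and 5 between the inhibitors alone, as did all probe sets. Without 1 array it was 12 to 58 for enzalutamide, 25 to 100 for PF-543, 115 to 358 and 49 to 124 for the combinations against DMSO, 40 to 71 without DMSO, 24 to 55 and 8 to 16 for enzalutamide on top of PF-543 and ABC294640, 0 to 6 for PF-543 on top of enzalutamide, 3 to 17 between the combinations, 1 to 3 between the inhibitors alone and 103 to 138 over the 3.

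Of the members' differences that had not passed, 41 of 3106 recomputed values changed sign, none from a difference larger than log2 0.12. The 3 DMSO arrays and the single ABC294640 array limit the precision of each comparison they enter.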

Other observations

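Of the ATF4 targets that are no transporters, some rose with PF-543 and with the combinations. With PF-543 against DMSO 3 of 25 rose and 0 fell, where 0.565% of all genes passed: DDIT4 (log2 1.09, SE 0.13), CHAC1 (0.69, SE 0.11) and PSPH, the phosphatase of serine synthesis (0.57, SE 0.10), with limma adjusted p from 0.00231 to 0.0279. With enzalutamide and PF-543 against DMSO 10 of 25 rose and 0 fell, the largest being DDIT4 (2.36, SE 0.13), CHAC1 (1.97, SE 0.11), the stress cytokine GDF15 (1.49, SE 0.17) and SESN2 (1.13, SE 0.15), with a median of 0.30 over the list and -0.01 over all genes. In that comparison 1.12% of all genes rose and 0.905% fell. With enzalutamide and ABC294640 against DMSO 6 of 25 rose, led by CHAC1 (1.56, SE 0.11) and DDIT4 (1.21, SE 0.13), where 0.339% of all genes rose. On top of enzalutamide, where no DMSO array enters, PF-543 gave 1.17 for DDIT4 (limma adjusted p = 0.0118), 0.79 for CHAC1 (adjusted p = 0.055), 0.90 for GDF15 (adjusted p = 0.202) and 0.38 for PSPH (adjusted p = 0.413).

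Of 29 genes of amino acid sensing by mTORC1, 2 rose with enzalutamide and PF-543 against DMSO, where 1.12% of all genes did. These were SESN2 and its relative SESN3 (0.85, SE 0.19, limma adjusted p = 0.0371). On top of enzalutamide, PF-543 gave 0.60 for SESN3 (adjusted p = 0.492). With PF-543 on top of enzalutamide ATF3, a transcription factor induced by stress, rose (1.05, SE 0.14, limma adjusted p = 0.0305). ATF3 was the 1 of 20 regulators that passed there, where 0.0283% of all genes did. The SLC6A9 differences for the same comparisons, 0.41 with PF-543 against DMSO and 0.19 with PF-543 on top of enzalutamide, did not pass. Whether the transporters and these genes differ in their response was not tested.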
